A study of Mus musculus with 18 samples.

Results

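The genes of the unfolded protein response and the integrated stress response were followed in the RNA-seq of bone marrow-derived macrophages (BMDMs). The 36 genes were picked by name out of the 20615 genes in the table, and all 36 were among the 15789 genes with enough reads to be tested. They comprise 14 chaperones and folding enzymes of the endoplasmic reticulum (ER), 3 genes of ER-associated degradation, 4 genes of the sensors of the unfolded protein response and their factor XBP1, 5 regulators of the integrated stress response (ISR) and 10 targets of the transcription factor ATF4.

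The unfolded protein response is the reaction of a cell to proteins that fail to fold in the ER. Its sensors are IRE1 (gene *Ern1*), ATF6 and PERK (gene *Eif2ak3*), and through XBP1 and ATF6 it raises chaperones and degradation factors. PERK also phosphorylates the translation factor eIF2, as do the kinases HRI, PKR and GCN2, and this shared step, the ISR, lowers protein synthesis while it favours the translation of ATF4. Macrophages that take up dying cells or sense microbial DNA secrete proteins and digest cargo, and both pathways are known to operate in them.

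BMDMs were grown from the marrow of female C57BL/6 (B6) mice and of female C57BL/6.NOD-Aec1Aec2 (SjSS) mice, a model of Sjögren's syndrome that carries the NOD intervals Idd3 (Aec1) and Idd5 (Aec2) on the B6 background. Mice were 7 to 12 weeks old, marrow cells were differentiated for 7 days with 20% L929 supernatant as the source of M-CSF, and treatments were given in medium with 5% of it. For each strain there were 3 untreated control samples, 3 given apoptotic cells (AC) and 3 given CpG, a synthetic oligonucleotide that stimulates Toll-like receptors, at 1 µM for 6 h. The ACs were thymocytes killed with dexamethasone, added at 5 per BMDM for 2 h and washed away. RNA was taken 3 h later according to the sample labels. The methods took thymi from mice of both strains and call the ACs of the cytokine assay syngeneic. They do not say which strain's thymocytes each BMDM group received for the RNA-seq. A difference of BMDM strain and one of thymocyte strain may therefore not be told apart in the responses to ACs. The comparison asks whether the response to ACs differs between the strains, with CpG as another stimulus. Samples of a group came from separate mice by the methods, and no source says whether equal sample numbers mark 1 mouse.

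Totals ran from 30688288 to 57139640 counts per sample, with a median of 47912516. The 8 macrophage markers summed to between 15105 and 23748 CPM (counts scaled to library depth) in all samples. The 12 T lineage and thymocyte markers summed to 0.737 to 1.38 CPM in control and 1.57 to 2.16 CPM in AC treated B6 BMDMs. They summed to 0.799 to 1.22 CPM in control and 2.38 to 3.09 CPM in AC treated SjSS BMDMs. In CpG treated samples, which received no thymocytes, they summed to 1.01 to 1.87 CPM in B6 and 1.33 to 1.98 CPM in SjSS. *Rag1*, which marks immature thymocytes, was at 0 in all control samples and below 0.2 CPM in all AC treated samples. It had 24 counts over the 3 AC treated B6 samples and 3 over those of SjSS, and *Themis* had 10 and 0. *Lck*, *Lat* and *Cd247*, the 3 of the 12 with enough reads to be tested, went the other way. They had 39, 72 and 41 counts in AC treated B6 and 86, 127 and 81 in AC treated SjSS BMDMs. Samples without thymocytes also held them. B6 BMDMs had 21, 106 and 28 counts in control and 29, 55 and 59 with CpG. SjSS BMDMs had 21, 81 and 6 in control and 31, 77 and 67 with CpG. The part of leftover thymocyte RNA in the results was not tested. The 5 fibroblast markers summed to 38.6 to 133 CPM in the B6 samples and to 148 to 232 CPM in the SjSS samples, and their part in the strain differences was not tested. The 7 B and plasma cell markers ran from 46.1 to 107 CPM, mostly *Sdc1*, *Ighm* and *Cd79b*, and the 2 of 5 neutrophil markers in the table from 1.84 to 11.6 CPM.

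All values are relative to the typical gene. Libraries were scaled by TMM, which brings the median gene close to no change, and the factors of the 3 AC treated SjSS samples, 0.833 to 0.838, lay below those of the other 15, which were between 0.942 and 1.13. With library totals alone, the median log2 fold change of all tested genes moved to -0.43 for the AC response in SjSS and to -0.35 for its difference from the response in B6. "Higher" and "lower" therefore mean higher or lower than the typical gene, and results whose direction turned with library totals are given as such. Counts on either scale are relative within a library, and neither the number of cells nor the RNA per cell was measured. A gene changed where its adjusted p (edgeR's quasi-likelihood test, Benjamini-Hochberg adjusted over all tested genes) was under 0.05, and it passed the fold threshold where its log2 fold change was also over 1.3 in size.

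The promoters of several members hold known elements of both pathways. Of the 36 genes, 33 had a promoter in RefSeq (GRCm38.p6), taken as the 250 bases before and the 50 after the transcription start. The ER stress response element (ERSE), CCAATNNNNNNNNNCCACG, is bound by NF-Y at CCAAT and by ATF6 or XBP1 at CCACG. On either strand it was in 0.119% of all 32851 promoters, in 7 of the 12 matched chaperone promoters, in that of *Syvn1*, and in none of the 15 matched promoters of ISR regulators and ATF4 targets. Whether the element goes with any response was not tested. The sites are shown because most matched chaperone promoters hold one, with the element in capitals and 20 bases on each side. They are written along the gene's strand, so that an element on the opposite strand reads CGTGG first.
Hspa5, chr2:34772005-34772063, + strand: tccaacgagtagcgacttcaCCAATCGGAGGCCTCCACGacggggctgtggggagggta
Hsp90b1, chr10:86705618-86705676, - strand: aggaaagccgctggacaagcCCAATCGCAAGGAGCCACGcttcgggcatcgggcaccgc
Hsp90b1, chr10:86705513-86705571, - strand: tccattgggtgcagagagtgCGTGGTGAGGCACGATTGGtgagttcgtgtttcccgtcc
Pdia6, chr12:17266471-17266529, + strand: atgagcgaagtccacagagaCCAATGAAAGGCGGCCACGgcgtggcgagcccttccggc
Calr, chr8:84847055-84847113, - strand: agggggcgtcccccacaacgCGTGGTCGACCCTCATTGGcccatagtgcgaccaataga
Canx, chr11:50325780-50325838, - strand: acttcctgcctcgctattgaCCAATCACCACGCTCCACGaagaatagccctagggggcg
Dnajc3, chr14:118937807-118937865, + strand: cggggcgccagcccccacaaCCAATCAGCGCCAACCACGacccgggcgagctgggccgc
Creld2, chr15:88819500-88819558, + strand: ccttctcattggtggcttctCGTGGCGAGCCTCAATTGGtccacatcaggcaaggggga
Syvn1, chr19:6046512-6046570, + strand: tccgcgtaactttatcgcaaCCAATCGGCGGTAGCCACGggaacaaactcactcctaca
All 9 lay before the start, between the *Hsp90b1* site at -212 and the *Syvn1* site that ends at -26. The looser search for CCAAT and CCACG in the same promoter at any spacing found 10 of the 12 chaperones, against 7.75% of all promoters. The UPRE core TGACGTG, a site of XBP1 and ATF6, was in 2.01% of all promoters and, among the members, in that of *Hspa5* alone.

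The C/EBP-ATF element TGATGNAA, which ATF4 binds with a C/EBP partner, was in 3.97% of all promoters and in 5 of the 10 promoters of ATF4 targets. Those of *Chac1*, *Asns*, *Vldlr* and *Nupr1* are shown in the same way because they hold the element before a RefSeq start, together with *Herpud1*, an ER gene that also does. An element on the opposite strand reads TTNCATCA. The fifth was that of *Trib3*, where it lay after the start. For *Vldlr* the element was in the second of 2 promoters (chr19:27216770-27217069) and not in the first. That promoter lies within the gene as given with the counts (chr19:27216484-27254231). The *Nupr1* promoter (chr7:126625421-126625720) also lies within its gene (chr7:126623249-126630861).
Chac1, chr2:119351029-119351076, + strand: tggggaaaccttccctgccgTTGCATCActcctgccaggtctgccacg
Asns, chr6:7693205-7693252, - strand: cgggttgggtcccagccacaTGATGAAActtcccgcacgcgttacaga
Vldlr, chr19:27216800-27216847, + strand: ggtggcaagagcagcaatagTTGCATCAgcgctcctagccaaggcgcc
Nupr1, chr7:126625553-126625600, - strand: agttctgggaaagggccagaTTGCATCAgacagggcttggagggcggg
Herpud1, chr8:94386297-94386344, + strand: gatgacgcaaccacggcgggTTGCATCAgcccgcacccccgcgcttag
The variant TGACGNAA was in 1.59% of all promoters and in those of *Dnajb9*, *Herpud1* and *Chac1*. A match says that the letters are present, not that a factor is bound. The lists hold known genes of both pathways, so their shares beside all promoters are a description and not a test.

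Chaperones were among the most abundant members. Per length of transcript, control B6 BMDMs held 252 RPKM (reads scaled to transcript length and depth) of *Calr* (calreticulin), 154 of *Hspa5* (BiP, the main Hsp70 of the ER), 143 of *Hsp90b1* (GRP94), 137 of *Pdia3* (a disulfide isomerase for glycoproteins) and 108 of *Canx* (calnexin). *Atf4* was at 47.0 RPKM, *Eif2ak3* at 4.15, *Nupr1* at 2.41 and *Chac1* at 0.0837 RPKM. The weakest members, *Chac1*, *Vldlr* and *Phgdh*, were all ATF4 targets, and their values rest on few reads: *Chac1* had 22 counts over the 3 control B6 samples.

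With ACs, 0 of the 14 chaperones rose and 6 fell in B6 BMDMs, whereas 8 rose and 0 fell in SjSS BMDMs. The counts of 0, from edgeR, were also 0 at an unadjusted p under 0.05 and by DESeq2. Over all members, 19 of 36 changed in B6 (7 higher, 12 lower), where 38.3% of all tested genes did (20% higher, 18.3% lower). In SjSS 24 changed (16 higher, 8 lower), where 58% of all tested genes did (28.6% higher, 29.4% lower). The median log2 fold change of the chaperones was -0.14 in B6 and 0.20 in SjSS, beside medians of 0.00 and -0.02 over all tested genes. With library totals the chaperone median in SjSS was -0.21, with 1 higher and 10 lower, and all members split into 5 higher and 24 lower. On that scale 2080 of all 15789 tested genes were higher and 8933 lower. Relative to the median of all genes the chaperone median stayed at 0.22 on either scale.

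*Hspa5* (chr2:34771970-34777547, mm10) carried the largest chaperone response to ACs. It was at 688, 644 and 624 CPM in control and 665, 628 and 635 CPM in AC treated B6 BMDMs. In SjSS BMDMs it was at 718, 777 and 606 CPM in control and 1132, 1145 and 1230 CPM with ACs. The B6 groups overlapped, and every AC treated SjSS sample lay above all other samples, although the highest CpG treated B6 sample was close, at 1128 CPM. The log2 fold change was -0.02 in B6 (95% interval -0.22 to 0.17) and 0.74 ± 0.09 (SE) in SjSS, with edgeR's adjusted p = 1.33e-06. The strains differed in this response by 0.76 ± 0.13 (adjusted p = 0.000143). *Hspa5* kept both calls with library totals, at 0.33 for the response in SjSS and 0.42 for the difference between strains.

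The remaining chaperones moved less. *Manf*, a secreted ER stress factor, was at 80.9, 66.2 and 71.4 CPM in control and 83.8, 78.8 and 74.0 CPM in AC treated B6 BMDMs. In SjSS it was at 82.8, 83.8 and 77.9 CPM in control and 108, 106 and 119 CPM with ACs. Only the SjSS groups separated, with a log2 fold change of 0.45 ± 0.09 (edgeR's adjusted p = 0.000169), which was 0.04 with library totals (adjusted p = 0.72). *Calr* was at 757, 715 and 707 CPM in control and 615, 562 and 578 CPM in AC treated B6 BMDMs. It was at 693, 680 and 668 CPM in control and 780, 749 and 774 CPM in AC treated SjSS BMDMs. Its groups separated in both strains, downwards in B6 (-0.31 ± 0.07, adjusted p = 0.00162) and upwards in SjSS (0.17 ± 0.07, adjusted p = 0.0418). The upward call of *Calr* was lost without any 1 of the 6 SjSS libraries it rests on (adjusted p up to 0.104), and with library totals it was -0.24.

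In B6 the other chaperones that fell were *Hsp90b1*, *Pdia3*, *Pdia4*, *Dnajc3* (an inhibitor of PERK) and *Sdf2l1*, by log2 fold changes between -0.46 and -0.24. In SjSS the others that rose were *Pdia3*, *Pdia6*, *Canx*, *Dnajb11* and *Creld2*, by 0.23 to 0.32. With library totals all 5 of these had negative values in SjSS. The *Pdia3* call in B6 was lost without each of the control libraries 1 and 2 and each AC library, with an adjusted p up to 0.129. Its call in SjSS was lost without control library 3 (adjusted p = 0.0754) and without AC library 3 (adjusted p = 0.052). None of the 14 chaperones passed the fold threshold with ACs in either strain, where 4.47% and 12.9% of all tested genes did.

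The AC response of 9 chaperones differed between the strains, and all 9 were shifted upwards in SjSS. They were *Hspa5*, *Hsp90b1*, *Pdia3*, *Pdia6*, *Calr*, *Canx*, *Dnajb11*, *Dnajc3* and *Manf*, with differences in log2 fold change between 0.28 and 0.76. Over all members 23 of 36 differed (15 higher and 8 lower in SjSS), against 37.9% of all tested genes (19.6% higher, 18.3% lower). Of the 9 chaperone calls, 7 held under the other filters, tests and size factors and without each library in turn, and those of *Dnajc3* and *Manf* did not. With library totals *Hspa5* alone was still called, and all members split into 4 higher and 12 lower. All tested genes split into 1445 higher and 6623 lower on that scale. The chaperone median was 0.36 on the TMM scale and 0.01 on library totals, and 0.36 above the median of all genes on both.

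**Figure D1:**
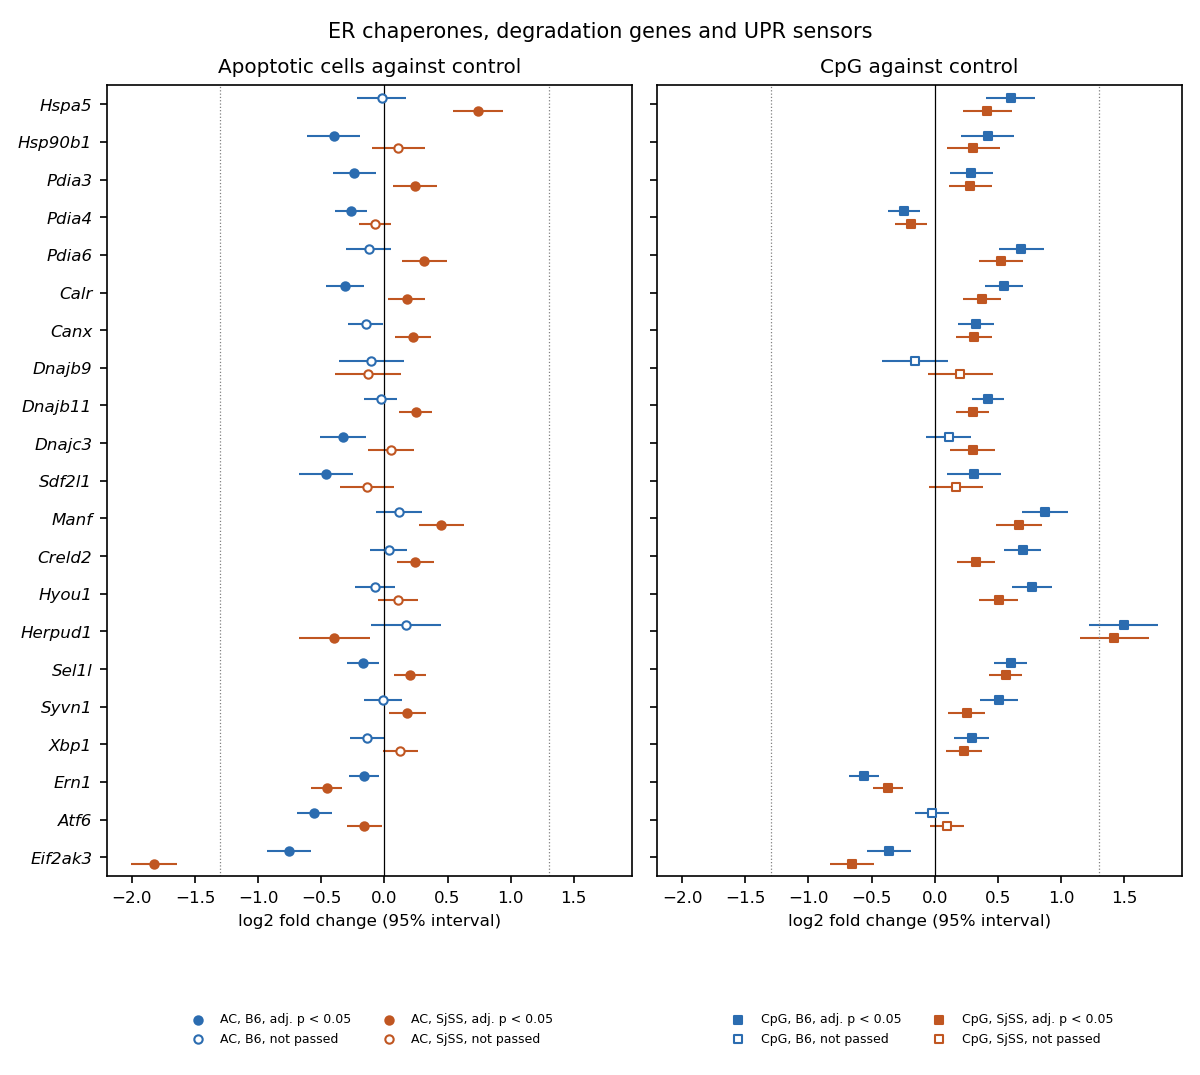
Log2 fold change with its 95% interval for the 14 ER chaperones, 3 degradation genes and 4 sensor genes (rows), for ACs against control (left) and CpG against control (right) in B6 (blue) and SjSS (orange) BMDMs, 3 samples per group. Filled symbols changed at an adjusted p under 0.05 and dotted lines mark the fold threshold of 1.3: *Hspa5* stands at 0.74 with ACs in SjSS and -0.02 in B6, while most chaperones lie to the right of 0 with CpG in both strains.

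CpG raised the chaperones in both strains. In B6, 11 rose and 1 fell (median 0.42), and in SjSS 11 rose and 1 fell (median 0.31). Over all members 28 of 36 changed in B6 (21 higher, 7 lower), against 57.9% of all tested genes (28.1% higher, 29.8% lower). In SjSS 30 changed (21 higher, 9 lower), against 54.2% (27.8% higher, 26.4% lower). The 1 that fell was *Pdia4*, a further disulfide isomerase, in both strains (-0.24 ± 0.06 and -0.19 ± 0.06). With library totals 9 rose and 2 fell in B6, and 8 rose and 1 fell in SjSS. Of all tested genes 3154 rose and 6573 fell in B6 on that scale, and 3260 rose and 5508 fell in SjSS.

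*Manf* rose most in both strains, followed by *Hyou1* (an ER chaperone of the Hsp110 family) in B6 and *Pdia6* in SjSS. *Manf* was at 148, 123 and 130 CPM in CpG treated B6 and at 124, 119 and 145 CPM in CpG treated SjSS BMDMs, all above every control sample. Its log2 fold changes were 0.87 ± 0.09 (edgeR's adjusted p = 4.9e-08) and 0.67 ± 0.09 (adjusted p = 2.16e-06). *Hyou1* changed by 0.77 ± 0.08 in B6 and 0.51 ± 0.08 in SjSS, and *Pdia6* by 0.69 ± 0.08 and 0.53 ± 0.08. *Dnajb9*, an ER co-chaperone that opposes IRE1, did not pass the test in either strain. Its log2 fold change was -0.15 (95% interval -0.41 to 0.11) in B6 and 0.20 (-0.06 to 0.46) in SjSS.

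For the CpG response only *Creld2*, a secreted folding factor, differed between the strains among all 36 members, where 5.85% of all tested genes did. It was at 19.6, 19.0 and 18.9 CPM in control and 32.9, 30.5 and 29.7 CPM in CpG treated B6 BMDMs. SjSS samples held 20.4, 22.8 and 19.5 CPM in control and 25.9, 24.8 and 27.7 CPM with CpG. The CpG samples lay above the controls in both strains, by more in B6, with a difference of -0.37 ± 0.10 (edgeR's adjusted p = 0.034). That call was lost under several other settings, as given in the closing section.

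Without treatment 0 of the 14 chaperones differed between the strains by edgeR and by DESeq2, and 2 did at an unadjusted p under 0.05 (*Hyou1* at 0.21 and *Canx* at -0.17). Of all members 6 of 36 differed, against 19.6% of all tested genes. With ACs, 12 of 14 chaperones were higher in SjSS than in B6 (median 0.39), among 27 members that differed (20 higher, 7 lower), against 49.4% of all tested genes (24% higher, 25.5% lower). *Hspa5* had the largest value, 0.86 ± 0.09. With library totals 1 chaperone was higher, *Hspa5* at 0.56, and 1 was lower, among 5 members higher and 14 lower. All tested genes split into 2085 higher and 8385 lower on that scale. With CpG, 9 members differed, against 19.7% of all tested genes, and the chaperones among them were *Calr* and *Creld2*, lower in SjSS, and *Dnajb9*, higher by 0.54 ± 0.12. The calls of *Calr* and *Creld2* were lost with library totals (adjusted p = 0.0682 and 0.113) and without some libraries (adjusted p up to 0.0739 and 0.0857), and that of *Calr* also with only the groups compared (adjusted p = 0.0792).

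ACs and CpG were also compared directly, although they were given for different times. In B6 12 of 14 chaperones were lower with ACs than with CpG (median -0.64), and 28 of 36 members differed (6 higher, 22 lower), against 46.1% of all tested genes (23.7% higher, 22.4% lower). In SjSS 7 were lower and 1 higher (median -0.20), and 19 members differed (4 higher, 15 lower), against 52.2% (25.7% higher, 26.5% lower). The 1 higher with ACs was *Hspa5*, by 0.32 ± 0.09, and with library totals its value was 0.04 (edgeR's adjusted p = 0.721) while 13 chaperones were lower. Of all tested genes 2211 were higher and 7658 lower on that scale. Of the 8 chaperone calls in SjSS, 2 held under all other settings and without each library.

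The degradation genes responded to CpG. *Herpud1* (chr8:94386438-94395377), a membrane protein of the degradation machinery, was at 23.7, 19.7 and 22.7 CPM in control, 24.2, 27.8 and 22.4 CPM in AC treated and 77.8, 54.1 and 54.4 CPM in CpG treated B6 BMDMs. The SjSS values were 22.5, 24.5 and 24.2 CPM in control, 18.9, 18.3 and 16.8 CPM with ACs and 60.9, 55.0 and 74.5 CPM with CpG. Every CpG sample lay far above all others, and the AC samples lay below the controls in SjSS and overlapped them in B6.

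*Herpud1* passed the fold threshold with CpG in both strains, at 1.5 ± 0.13 (edgeR's adjusted p = 8.62e-09) in B6 and 1.42 ± 0.13 (adjusted p = 2.42e-08) in SjSS. With ACs it was 0.17 (95% interval -0.10 to 0.45) in B6 and -0.40 ± 0.13 (adjusted p = 0.016) in SjSS, and the difference between the strains was -0.57 ± 0.19 (adjusted p = 0.022). The call in SjSS was lost without AC treated SjSS library 3 (adjusted p = 0.0643), and that of the difference without that library or replicate 2 of the control or AC treated B6 libraries (adjusted p up to 0.0663). *Sel1l* and *Syvn1*, the adaptor and the ubiquitin ligase of the HRD1 complex, rose with CpG in both strains by 0.25 to 0.60. With ACs in SjSS they rose by 0.20 and 0.18 and with library totals were -0.21 and -0.23, whereas in B6 *Sel1l* fell by 0.17 on the log2 scale. These 3 calls were each lost without at least 1 library (adjusted p up to 0.138).

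Of the sensor genes, 3 of 4 fell with ACs in each strain and none rose. Of all tested genes 18.3% fell and 20% rose in B6, and 29.4% fell and 28.6% rose in SjSS. *Eif2ak3* (PERK, chr6:70844515-70905245) was at 27.3, 25.0 and 22.7 CPM in control and 16.2, 14 and 14.2 CPM in AC treated B6 BMDMs. For SjSS the level was 32.8, 33.1 and 37.5 CPM in control and 10.2, 9.44 and 9.53 CPM with ACs. The AC samples lay below the controls in both strains, and those of SjSS were the lowest of all although their controls were the highest.

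The log2 fold change of *Eif2ak3* with ACs was -0.76 ± 0.08 (edgeR's adjusted p = 8.57e-07) in B6 and -1.83 ± 0.09 (adjusted p = 1.22e-12) in SjSS, where it passed the fold threshold. The difference between the strains was -1.07 ± 0.12 (adjusted p = 1.04e-06). CpG lowered it by less, to 20.9, 17.7 and 19.6 CPM in B6 and to 21.5, 22.8 and 21.3 CPM in SjSS. The CpG changes were -0.37 ± 0.08 and -0.66 ± 0.08. Without treatment it was 0.46 ± 0.08 higher in SjSS (adjusted p = 0.00059).

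*Atf6* (chr1:170704674-170867771) was at 123, 132 and 121 CPM in control and 85.7, 82.3 and 87.7 CPM in AC treated B6 BMDMs. SjSS BMDMs were at 90.8, 92.4 and 83.9 CPM in control and 79.5, 79.2 and 80.5 CPM with ACs. Control SjSS samples were thus near the level of AC treated B6 samples. The AC change was -0.55 ± 0.06 (edgeR's adjusted p = 1.53e-06) in B6 and -0.16 ± 0.06 (adjusted p = 0.0433) in SjSS. The SjSS call was lost under DESeq2's test and size factors and with the replicate number as a block (adjusted p = 0.0512). It was also lost without 5 of the 6 libraries (adjusted p up to 0.145). The AC responses of the strains differed by 0.40 ± 0.09 (edgeR's adjusted p = 0.00205). With library totals all 4 sensor genes fell with ACs in SjSS, where 8933 of all 15789 tested genes did. On that scale 0 of the 4 were higher for the difference between the responses (1445 of all tested genes were), so the upward difference of *Atf6* was lost.

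*Atf6* was lower in SjSS than in B6 without treatment (-0.49 ± 0.06, edgeR's adjusted p = 3.01e-05) and with CpG (-0.37 ± 0.06). With ACs it was -0.10, and with library totals it was called lower there too. Its gene lies on chromosome 1, and of the 119 tested genes that start within 5 Mb of it 56.3% differed between the untreated strains and 17.6% passed the fold threshold, against 19.6% and 2.01% of all tested genes. SjSS mice carry NOD intervals, and a difference of strain sequence near the gene and a difference in its regulation cannot be told apart here.

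*Ern1* (IRE1) fell with both stimuli in both strains, by log2 fold changes between -0.56 (CpG in B6) and -0.16 (ACs in B6), and the last of these was lost without 5 of its 6 libraries (adjusted p up to 0.183). *Xbp1*, whose RNA IRE1 splices, rose with CpG by 0.29 ± 0.07 in B6 and 0.23 ± 0.07 in SjSS, and both calls were lost with library totals (0.11 in each, adjusted p = 0.148 and 0.186). Counts per gene do not separate the spliced from the unspliced form. With ACs *Xbp1* was -0.13 in B6 and 0.13 in SjSS, and neither passed the test.

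Among the regulators of the ISR, *Atf4* rose with both stimuli in both strains. It was at 103, 112 and 117 CPM in control, 151, 164 and 160 CPM in AC treated and 158, 160 and 155 CPM in CpG treated B6 BMDMs. In SjSS it was at 88.5, 111 and 80.3 CPM in control, 132, 147 and 146 CPM with ACs and 153, 163 and 151 CPM with CpG. All treated samples lay above all controls of both strains. The log2 fold changes were 0.51 ± 0.09 and 0.61 ± 0.09 with ACs and 0.51 ± 0.09 and 0.74 ± 0.09 with CpG, in B6 and SjSS in turn. ATF4 is regulated chiefly by translation, which these data do not measure.

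*Ddit3* (CHOP, a factor of prolonged stress) went apart in the strains. It was at 20.0, 34.3 and 30.5 CPM in control and 32.7, 42.5 and 37.6 CPM in AC treated B6 BMDMs. SjSS samples held 34.9, 41.1 and 36.7 CPM in control and 24.9, 28.7 and 26.3 CPM with ACs. The B6 groups overlapped and the SjSS groups did not. The log2 fold change was 0.42 ± 0.15 in B6 (edgeR's adjusted p = 0.0337) and -0.49 ± 0.15 in SjSS (adjusted p = 0.00884), with a difference of -0.91 ± 0.21 (adjusted p = 0.00224). Control B6 sample 1 was the lowest of its group, and without it the B6 value was 0.22 (adjusted p = 0.191). The B6 call was also lost without AC treated B6 library 2 (adjusted p = 0.155) or library 3 (adjusted p = 0.0712). It was lost as well with only the groups compared (adjusted p = 0.0764) and with library totals (adjusted p = 0.068). The difference between the strains held without each library in turn.

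*Ppp1r15a* (GADD34, chr7:45522916-45526268), the inducible subunit of the phosphatase that removes phosphate from eIF2, showed the largest response of the regulators. It was at 19.2, 23.7 and 28.7 CPM in control, 45.0, 53.7 and 56.0 CPM in AC treated and 62.4, 80.4 and 69.9 CPM in CpG treated B6 BMDMs. The SjSS values were 22.2, 27.9 and 21.0 CPM in control, 151, 168 and 155 CPM with ACs and 49.3, 54.8 and 50.0 CPM with CpG. The controls of the strains overlapped, and AC treated SjSS samples stood above all others.

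The log2 fold change of *Ppp1r15a* with ACs was 1.11 ± 0.13 (edgeR's adjusted p = 1.53e-06) in B6 and 2.74 ± 0.13 (adjusted p = 1.64e-12) in SjSS. The difference of 1.63 ± 0.18 (adjusted p = 9.04e-07) passed the fold threshold, as did 7.53% of all tested genes. With CpG the changes were 1.57 ± 0.13 and 1.12 ± 0.13, and their difference, -0.45 ± 0.18, did not pass the test (adjusted p = 0.164). ACs thus gave less *Ppp1r15a* than CpG in B6 (-0.46 ± 0.13) and more in SjSS (1.62 ± 0.13).

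*Cebpg*, a dimerization partner of ATF4, fell with both stimuli. Control samples held 80.0 to 94.2 CPM in both strains. AC treated samples held 48.9, 50.8 and 49.0 CPM in B6 and 36.2, 36 and 33.2 CPM in SjSS. The groups did not overlap, and the changes were -0.81 ± 0.07 (edgeR's adjusted p = 5.95e-08) and -1.32 ± 0.07 (adjusted p = 1.56e-11), which differed by -0.50 ± 0.10. *Atf5*, a paralogue of ATF4, fell with CpG (-0.41 ± 0.12 and -0.34 ± 0.12) while its groups overlapped, and did not pass the test with ACs. The *Atf5* call in SjSS was lost without 4 of its 6 libraries (adjusted p up to 0.0984).

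The 10 targets of ATF4 did not move as a group. With ACs 4 rose and 1 fell in B6 (median 0.40) and 4 rose and 2 fell in SjSS (median 0.05), where 38.3% and 58% of all tested genes changed. With library totals they were 2 higher and 4 lower in SjSS (median -0.37), where 2080 of all 15789 tested genes were higher and 8933 lower. With CpG 4 rose and 2 fell in B6, and 4 rose and 3 fell in SjSS, against 57.9% and 54.2%. The AC response differed between the strains for 5 of the 10 targets, 2 upwards and 3 downwards in SjSS. Of all tested genes 37.9% differed (19.6% higher, 18.3% lower). With ACs in SjSS the targets held the largest increase of the 36 members, that of *Nupr1*, and the largest decrease after *Eif2ak3*, that of *Sesn2*.

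*Nupr1* (chr7:126623249-126630861), a small stress-induced chromatin protein, was at 5.7, 6.2 and 6.27 CPM in control, 12.2, 20.8 and 17.8 CPM in AC treated and 23.2, 30.8 and 25.8 CPM in CpG treated B6 BMDMs. For SjSS the level was 5.82, 5.44 and 6.47 CPM in control, 45.9, 46.3 and 41.3 CPM with ACs and 22.3, 20.2 and 19.8 CPM with CpG. Every treated sample lay above every control, and the AC treated SjSS samples were the highest.

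The AC response of *Nupr1* was 1.48 ± 0.15 (edgeR's adjusted p = 2.15e-07) in B6 and 2.91 ± 0.15 (adjusted p = 3.95e-12) in SjSS, and the difference was 1.42 ± 0.21 (adjusted p = 2.37e-05). CpG gave 2.13 ± 0.15 and 1.81 ± 0.15. *Mthfd2*, a mitochondrial enzyme of the folate cycle, was at 12.2, 10.4 and 11.9 CPM in control and 20.5, 17.8 and 19.4 CPM in AC treated B6 BMDMs. SjSS BMDMs were at 9.85, 12.3 and 10.2 CPM in control and 32.6, 35.9 and 37.8 CPM with ACs.

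For *Mthfd2* the AC samples lay above the controls in both strains, at 0.74 ± 0.12 and 1.72 ± 0.12, with a difference of 0.98 ± 0.17 (edgeR's adjusted p = 0.000148). CpG raised it by 1.76 ± 0.12 and 1.75 ± 0.12, a difference of the strains of -0.01 (95% interval -0.36 to 0.35). *Nupr1*, *Mthfd2* and *Ppp1r15a* shared this order: with ACs the response was larger in SjSS, and no difference between the strains' responses to CpG passed the test.

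*Sesn2* (chr4:132492032-132510501), a stress-induced inhibitor of the growth kinase mTORC1, went the other way. It was at 36.4, 38.4 and 40.4 CPM in control and 23.4, 26.2 and 28.4 CPM in AC treated B6 BMDMs. In SjSS it was at 58.2, 59.6 and 72.5 CPM in control and 19.5, 19.2 and 21.9 CPM with ACs. Control SjSS samples were the highest and AC treated SjSS samples the lowest of these 4 groups, which did not overlap.

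*Sesn2* changed by -0.56 ± 0.09 (edgeR's adjusted p = 3.91e-05) in B6 and by -1.65 ± 0.09 (adjusted p = 6.66e-12) in SjSS with ACs, with a difference of -1.09 ± 0.12 (adjusted p = 1.08e-06). CpG lowered it by 0.72 and 1.13 on the log2 scale. Without treatment it was 0.72 ± 0.09 higher in SjSS (adjusted p = 9.45e-06). *Eif2ak3* and *Sesn2* were thus both higher in untreated SjSS BMDMs and lower in them after ACs.

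*Asns* (asparagine synthetase) was at 4.58, 5.57 and 5.13 CPM in control and 12.5, 11.4 and 10.5 CPM in AC treated B6 BMDMs. SjSS samples held 4.31, 5.68 and 6.91 CPM in control and 5.84, 9.38 and 8.37 CPM with ACs. The groups separated in B6 and overlapped in SjSS, with changes of 1.18 ± 0.18 (edgeR's adjusted p = 4.52e-05) and 0.49 ± 0.19 (adjusted p = 0.0323). The SjSS call and the difference of -0.69 ± 0.26 (adjusted p = 0.044) were lost without 4 and 8 libraries, with values down to 0.32 and between -0.73 and -0.50. With library totals the SjSS value was 0.07 (adjusted p = 0.762).

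*Chac1*, which degrades glutathione, was at 0.0961, 0.209 and 0.107 CPM in control and 0.496, 0.322 and 0.379 CPM in AC treated B6 BMDMs. The SjSS values were 0.479, 0.858 and 0.218 CPM in control and 0.284, 0.568 and 0.157 CPM with ACs. Only the B6 groups separated. The B6 change was 1.56 ± 0.54 (edgeR's adjusted p = 0.0281), the SjSS value was -0.55 (95% interval -1.57 to 0.47), and the difference was -2.11 ± 0.73 (adjusted p = 0.0284). The B6 call was lost without 4 of its 6 libraries (adjusted p up to 0.104) and that of the difference without 6 (adjusted p up to 0.0951). CpG raised *Chac1* in B6 by 2.53 ± 0.52 (adjusted p = 0.000332).

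The enzymes of serine synthesis and use were apart from these. *Phgdh* was higher in SjSS at every condition, by 0.97 ± 0.25 without treatment, 1.17 ± 0.24 with ACs and 1.05 ± 0.25 with CpG. In SjSS it rose with ACs by 0.84 ± 0.24, or 0.42 with library totals (edgeR's adjusted p = 0.131). Its levels were low, from 0.459 CPM in a control B6 sample to 3.54 CPM in an AC treated SjSS sample. *Phgdh* lies on chromosome 3 (chr3:98313170-98339990), and of 146 tested genes that start within 5 Mb 34.9% differed between the untreated strains. The untreated call was lost without control B6 library 2 (0.70, edgeR's adjusted p = 0.0553) and without control SjSS library 3 (adjusted p = 0.0643).

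*Psat1*, the next enzyme of the same pathway, fell with CpG by 1.12 ± 0.13 and 0.60 ± 0.12 on the log2 scale in B6 and SjSS, and did not pass the test with ACs. *Shmt2*, which splits serine in mitochondria, did not pass in any response to either stimulus, with values between -0.21 and 0.15. *Vldlr*, a lipoprotein receptor, rose with CpG (1.17 ± 0.17 and 0.81 ± 0.17) and was 0.15 and -0.37 with ACs, neither of which passed the test. *Trib3*, a pseudokinase that inhibits ATF4, fell in SjSS with ACs (-0.78 ± 0.25, edgeR's adjusted p = 0.0125) and with CpG (-0.68 ± 0.25, adjusted p = 0.0276). The *Trib3* call with ACs was lost without AC treated SjSS library 1 (adjusted p = 0.0537), and that with CpG without 4 of its 6 libraries (adjusted p up to 0.129).

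**Figure D2:**
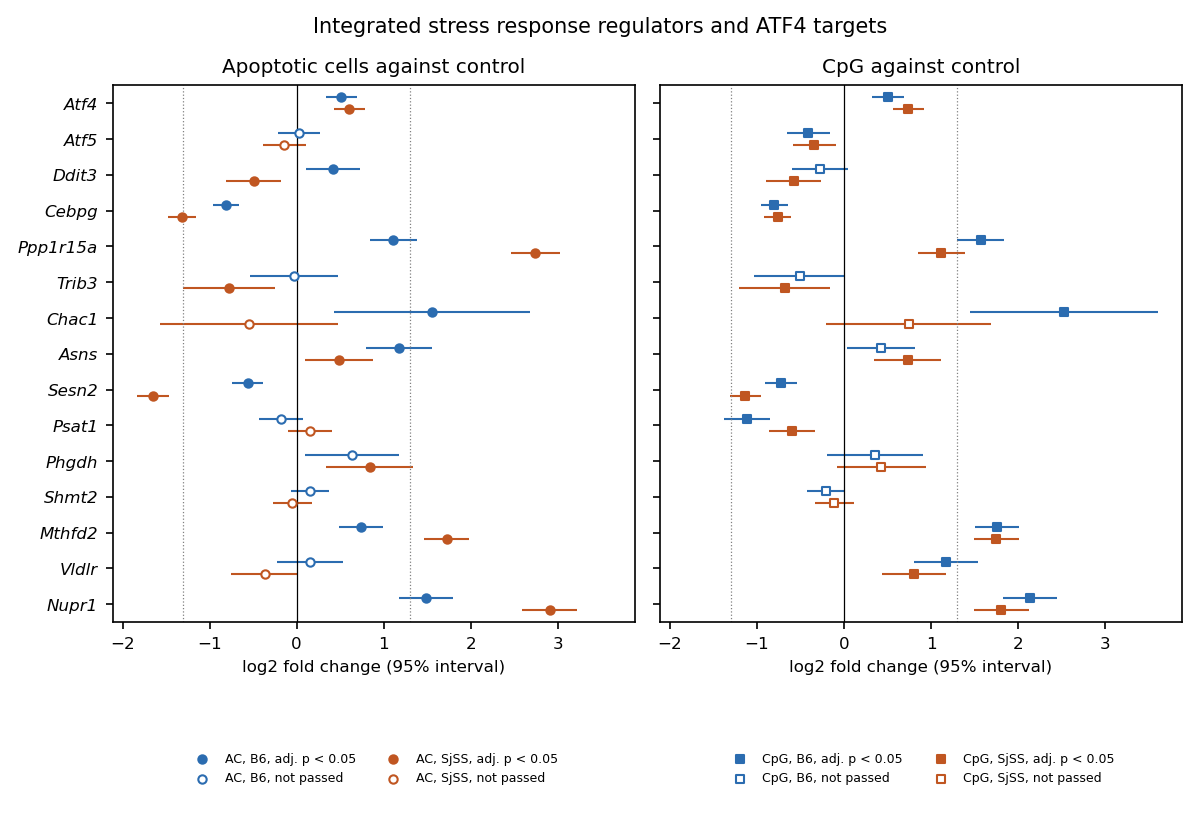
Log2 fold change with its 95% interval for the 5 ISR regulators and 10 ATF4 targets (rows), for ACs against control (left) and CpG against control (right) in B6 (blue) and SjSS (orange) BMDMs, 3 samples per group. Filled symbols changed at an adjusted p under 0.05 and dotted lines mark the fold threshold of 1.3: *Ppp1r15a* and *Nupr1* stand at 2.74 and 2.91 with ACs in SjSS, *Sesn2* at -1.65, and the wide interval of *Chac1* goes with its low counts.

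**Figure D3:**
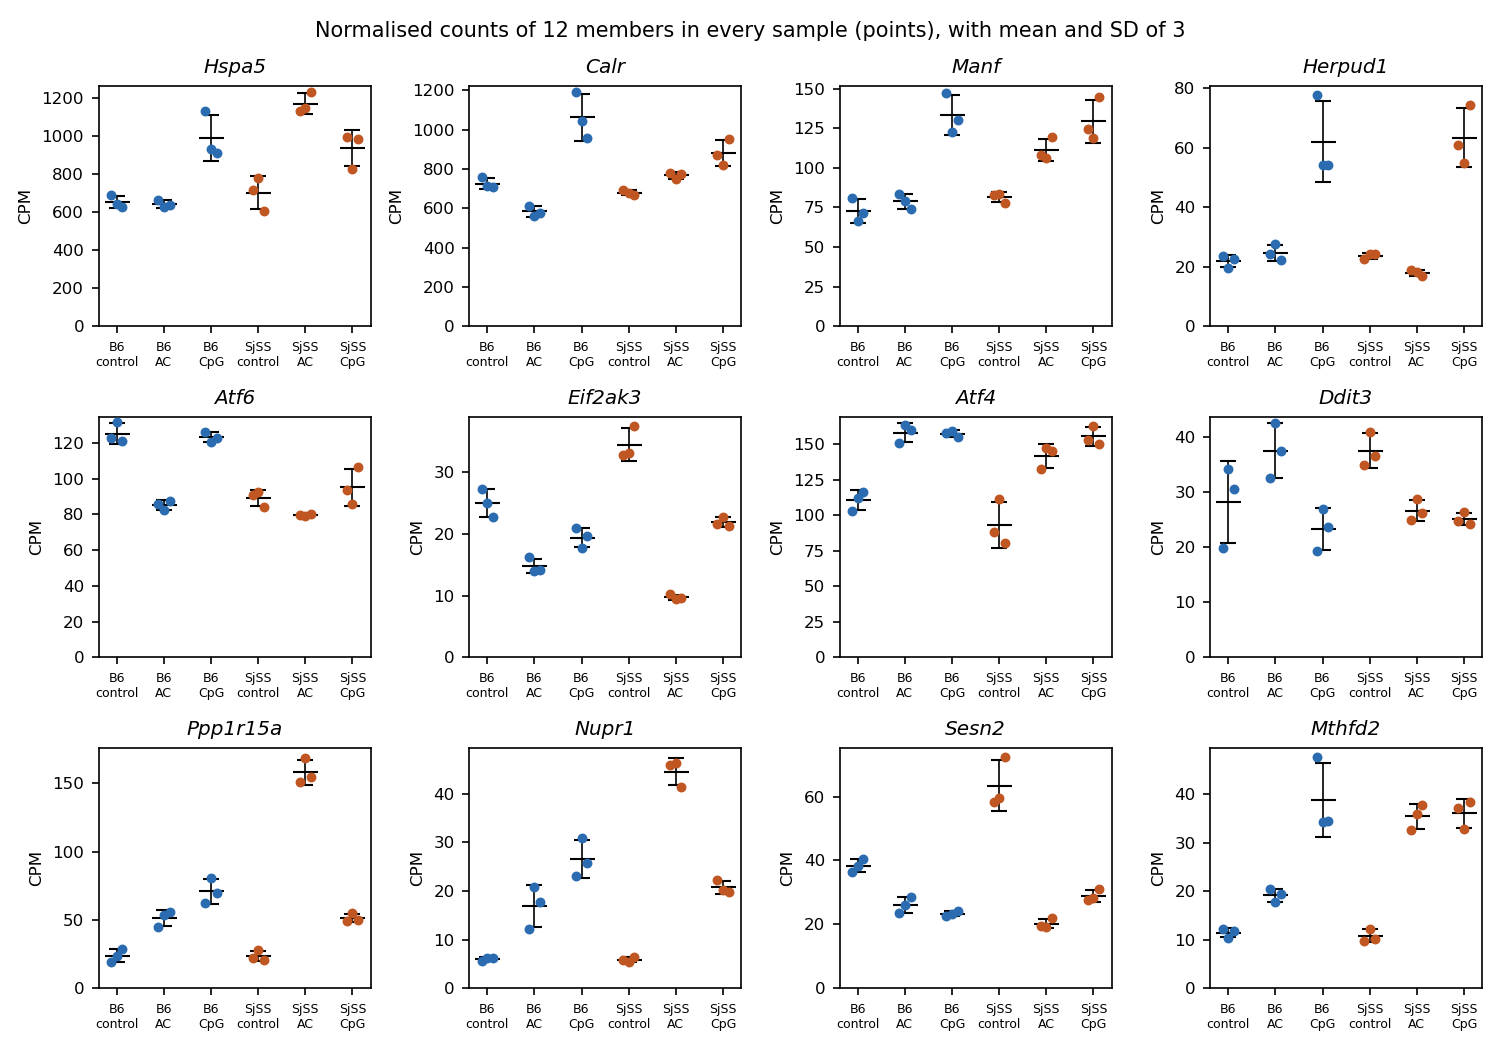
Level in CPM (vertical axis, from 0) of 12 members in each of the 18 samples (points) with the mean and SD of the 3 samples of a group, B6 in blue and SjSS in orange. AC treated SjSS samples are the highest for *Ppp1r15a* and *Nupr1* and the lowest for *Eif2ak3*, and the CpG samples are the highest for *Herpud1*.

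**Figure D4:**
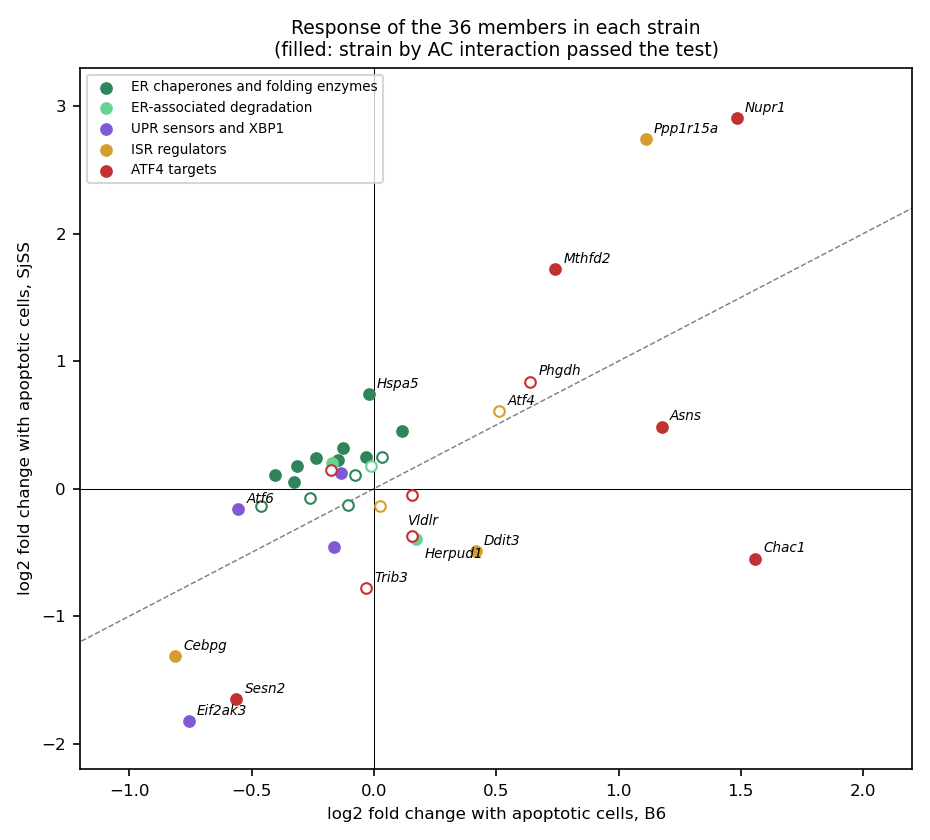
Log2 fold change with ACs in B6 (horizontal) against that in SjSS (vertical) for the 36 members, coloured by list, with the dashed line where both are equal. Filled points are the 23 members whose response differed between the strains: 13 of the 14 chaperones lie above the line on this TMM scale, which they do not clearly do with library totals (median difference 0.01), and ATF4 targets lie on both sides of it.

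Past the fold threshold of 1.3, 2 members were called with ACs in B6 (*Chac1* and *Nupr1*) and 6 in SjSS (*Ppp1r15a*, *Nupr1* and *Mthfd2* higher, *Eif2ak3*, *Sesn2* and *Cebpg* lower), against 4.47% and 12.9% of all tested genes. With CpG they were 5 in B6 (*Herpud1*, *Ppp1r15a*, *Chac1*, *Mthfd2* and *Nupr1*) and 3 in SjSS (*Herpud1*, *Mthfd2* and *Nupr1*), where 12.7% and 9.26% of all tested genes passed it. Between the strains they were *Chac1* without treatment (against 2.01%) and *Ppp1r15a* and *Nupr1* with ACs (against 8.93%). With CpG there were 0 between the strains by edgeR and by DESeq2, against 2.61% of all tested genes. The difference between the AC responses passed for *Ppp1r15a*, *Nupr1* and *Chac1*, against 7.53% of all tested genes. That between the CpG responses passed for none by edgeR, where 0.614% of all tested genes passed. Between ACs and CpG, *Herpud1* passed in B6 (against 7.11%), and *Herpud1* and *Ppp1r15a* passed in SjSS (against 9.18%).

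The other kinases of eIF2 were measured beside PERK. *Eif2ak2* (PKR, which binds double-stranded RNA and is an interferon-stimulated gene) was at 80.2, 76.8 and 74.0 CPM in control and 91.1, 93.4 and 102 CPM in AC treated B6 BMDMs. For SjSS the level was 84.4, 84.8 and 74.7 CPM in control and 362, 327 and 366 CPM with ACs. The AC samples lay above the controls in both strains, by 0.31 ± 0.10 and 2.12 ± 0.11, which differed by 1.80 ± 0.15 (edgeR's adjusted p = 1.56e-08). *Eif2ak4* (GCN2, which senses amino acid shortage) fell in SjSS by 0.79 on the log2 scale and was -0.13 in B6. *Eif2ak1* (HRI) fell by 0.20 and 0.41. Among the kinases PKR thus rose with ACs in SjSS while *Eif2ak3*, *Eif2ak4* and *Eif2ak1* fell.

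*Ppp1r15b* (CReP, the constitutive counterpart of GADD34) was at 105, 109 and 102 CPM in control and 111, 113 and 116 CPM in AC treated B6 BMDMs. SjSS BMDMs were at 86.5, 86.6 and 78.8 CPM in control and 186, 189 and 188 CPM with ACs. The SjSS groups were far apart, at 1.16 ± 0.06 (edgeR's adjusted p = 4.61e-12), the B6 value was 0.11 ± 0.06 (adjusted p = 0.169), and the responses differed by 1.05 ± 0.09 (adjusted p = 1.4e-08). Both regulatory subunits of the eIF2 phosphatase thus had a larger AC response in SjSS.

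A wider list of 44 ISR genes, chosen like the members with earlier results known, held 41 that were tested. With ACs 18 rose and 3 fell in B6 (median 0.17), where 38.3% of all tested genes changed. In SjSS 17 rose and 10 fell (median 0.09), where 58% of all tested genes changed. With library totals 11 rose and 24 fell in SjSS, where 2080 of all 15789 tested genes rose and 8933 fell. *Slc7a11*, the cystine transporter, rose most. It was at 70.8, 95.3 and 80.1 CPM in control and 286, 259 and 287 CPM in AC treated B6 BMDMs, and at 58.7, 73.1 and 47.0 CPM in control and 389 to 403 CPM in the 3 AC treated SjSS samples. The groups were wide apart in both strains, at 1.76 ± 0.14 and 2.73 ± 0.14, and CpG gave 3.07 ± 0.15 and 2.27 ± 0.14.

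*Gdf15*, a secreted stress cytokine, rose with ACs by 0.82 ± 0.24 in B6 and 1.35 ± 0.24 in SjSS, and their difference of 0.53 ± 0.33 did not pass the test (edgeR's adjusted p = 0.239). *Ddit4*, an inhibitor of mTORC1 like *Sesn2*, was at 7.09, 9.58 and 12.7 CPM in control and 3.88, 4.10 and 4.20 CPM in AC treated SjSS BMDMs. It fell there by 1.27 on the log2 scale, was 0.12 ± 0.18 in B6, and the responses differed by -1.40 ± 0.26 (adjusted p = 0.000338). *Fgf21* and *Mars1* were not analysed here.

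Of a wider list of ER genes, 46 were tested. With ACs 5 rose and 8 fell in B6 (median 0.01), and 23 rose and 6 fell in SjSS (median 0.16), against 38.3% and 58% of all tested genes. With library totals 2 rose and 15 fell in B6, and 3 rose and 24 fell in SjSS. Of all tested genes 2356 rose and 3704 fell in B6 on that scale, and 2080 rose and 8933 fell in SjSS. With CpG 26 rose and 5 fell in B6, and 22 rose and 5 fell in SjSS, against 57.9% and 54.2%, or 16 and 12 in B6 and 17 and 9 in SjSS with library totals. *Ero1l*, the oxidase that recharges disulfide isomerases, rose with CpG by 1.49 ± 0.07 and 1.29 ± 0.07, and with ACs by 0.47 ± 0.07 and 0.65 ± 0.07. *P4hb*, the isomerase PDI, rose with ACs in SjSS by 0.19 ± 0.06 (-0.23 with library totals) and was 0.00 in B6.

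*Mbtps1*, the site-1 protease that releases active ATF6, fell with ACs by 0.26 and 0.44 on the log2 scale. *Atf6b*, the relative of ATF6, rose with CpG by 0.72 ± 0.06 and 0.56 ± 0.06. *Edem1*, which sorts glycoproteins for degradation, was 0.06 and 0.13 with ACs, and neither passed the test.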

How the data were processed

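RNA-seq was made from BMDMs of 2 strains under 3 conditions, 18 samples in all. The deposited table holds estimated counts per gene, which the authors made by aligning reads to mm10 with STAR and quantifying them with the expectation-maximization counter of Partek; 41.1% of the values were not whole. They were rounded to whole numbers. Groups were taken from the labels. Genes were filtered with filterByExpr, scaled by TMM, and fitted with edgeR 4.0.16 (R 4.3.3) by the quasi-likelihood test over all 18 samples with 1 mean per group, with Benjamini-Hochberg adjustment over the 15789 tested genes. CPM used library totals times TMM factors, and RPKM used exon lengths. Scripts were tested on simulated data.

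P-values measure the spread between these samples only. No pair of samples of a group agreed within sampling noise, the smallest chi-square per gene being 8.12. The named genes are the 36 members, with a fixed set of other pathway genes. Members and lists were chosen with earlier results of these data known. Alternatives were DESeq2 1.42.0, its size factors, other filters, only the groups compared, the replicate number as a block, and each library left out. Library totals without scaling factors were added after seeing the data. Promoters came from RefSeq (GRCm38.p6) and were not found for *Manf*, *Hyou1* and *Atf6*.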

Additional observations from a re-analysis of the deposited data

Results flagged for a closer look

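The response to ACs differed between the strains, by edgeR's test of the difference itself, for 23 members, where 37.9% of all tested genes did. Values are the log2 fold change in SjSS minus that in B6, with edgeR's p adjusted over all tested genes. Among the chaperones the differences were 0.76 for *Hspa5* (adjusted p = 0.000143), 0.51 for *Hsp90b1*, 0.48 for *Pdia3*, 0.44 for *Pdia6*, 0.49 for *Calr*, 0.38 for *Canx*, 0.28 for *Dnajb11*, 0.37 for *Dnajc3* and 0.34 for *Manf* (adjusted p = 0.0355). With library totals *Hspa5* alone of these was still called.

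In the degradation and sensor genes they were -0.57 for *Herpud1*, 0.37 for *Sel1l*, 0.26 for *Xbp1* (adjusted p = 0.0377), -0.30 for *Ern1*, 0.40 for *Atf6* and -1.07 for *Eif2ak3* (adjusted p = 1.04e-06). Among the ISR regulators they were -0.91 for *Ddit3*, -0.50 for *Cebpg* and 1.63 for *Ppp1r15a* (adjusted p = 9.04e-07). Among the ATF4 targets they were -2.11 for *Chac1*, -0.69 for *Asns* (adjusted p = 0.044), -1.09 for *Sesn2*, 0.98 for *Mthfd2* and 1.42 for *Nupr1*. The *Xbp1* call was lost without 6 libraries (adjusted p up to 0.106). With library totals 0 of the 3 degradation and 0 of the 4 sensor genes were called higher, and 1 and 2 were lower. All tested genes split into 1445 higher and 6623 lower on that scale. The upward calls of *Sel1l*, *Xbp1* and *Atf6* were thus not kept.

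The response to CpG differed between the strains for *Creld2*, by -0.37 ± 0.10 (SE, adjusted p = 0.034), where 5.85% of all tested genes differed.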

How the results depend on the processing

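Of the 214 calls of a member in a comparison, none reversed under the alternatives other than library totals, and 208 held with DESeq2's size factors, 211 with its Wald test, 208 with no filter, 214 with 10 counts in 3 samples, 207 with only the groups compared and 213 with the replicate block. Same-numbered samples of a strain had correlated deviations over 0.1 in 9 of 18 pairs, against 0 of 36 others, and 14 of 18 samples correlated best with their own number, which is a hint and not a pairing by design. The 1 member with a different CpG response between the strains became 2 with DESeq2's size factors, its Wald test or the replicate block, and 0 with no filter, only the groups compared or library totals. The 1 member past the fold threshold between untreated strains became 0 with only the groups compared. Without 1 library in turn, members past the threshold numbered 1 to 2 for ACs in B6, 0 to 1 between untreated strains, 1 to 2 between strains with ACs, 1 to 3 for the difference of the AC responses (1 without B6 AC library 1) and 0 to 1 for ACs against CpG in B6. Different CpG responses numbered 0 to 3. Over all calls and the libraries left out, a call held 1275 times and was lost 153 times. Under every alternative but library totals and without each library in turn, 14 of 19 calls for ACs in B6 and 16 of 24 in SjSS held. For CpG 27 of 28 in B6 and 25 of 30 in SjSS did.

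With library totals, members past the threshold became 1 between strains with ACs, 0 for ACs against CpG in B6 and 5 in SjSS, where 30 members differed. In that last comparison 2211 of all tested genes were higher and 7658 lower. Of the 214 calls 163 held, 38 were lost and 13 reversed. The reversed values for ACs in SjSS were -0.17 for *Pdia3*, -0.10 for *Pdia6*, -0.24 for *Calr*, -0.18 for *Canx*, -0.17 for *Dnajb11*, -0.17 for *Creld2*, -0.21 for *Sel1l* and -0.23 for *Syvn1*. Between strains with ACs they were -0.10 for *Canx* and -0.039 for *Sel1l*, and for the difference of the AC responses -0.062 for *Dnajb11*, -0.0039 for *Manf* and -0.081 for *Xbp1*. They follow from the scaling, which moved the median of all genes by about as much. Depth limits *Chac1*, *Phgdh* and *Vldlr*.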

Other observations

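The 12 heat shock genes, most of whose products fold proteins outside the ER, were tested. With ACs 11 rose and 0 fell in B6 by edgeR (median log2 fold change 0.35), and 7 rose and 1 fell in SjSS (median 0.20), against 20% higher and 18.3% lower of all tested genes in B6 and 28.6% and 29.4% in SjSS. With library totals 8 rose and 0 fell in B6, and 3 rose and 7 fell in SjSS. Of all tested genes 2356 rose and 3704 fell in B6 on that scale, and 2080 rose and 8933 fell in SjSS. *Hspa1b*, an inducible Hsp70, was at 0.961, 2.00 and 2.58 CPM in control and 15.3, 19.5 and 16.7 CPM in AC treated B6 BMDMs. In SjSS it was at 3.39, 6.98 and 2.83 CPM in control and 35.3, 33.6 and 42.0 CPM with ACs. The AC samples lay above the controls in both strains, by 3.23 ± 0.28 and 3.12 ± 0.26, and the difference of -0.11 ± 0.37 did not pass the test (edgeR's adjusted p = 0.856). *Hspa1a* is nearly identical to *Hspa1b*, and how reads were split between them is uncertain. It rose with ACs by 2.39 ± 0.39 and 2.98 ± 0.38.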
